A study of Danio rerio with 20 samples.

Results

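Whole zebrafish (Danio rerio) larvae exposed to nanosheets of lithium cobalt oxide (LCO) at 10 mg/L were compared with untreated larvae by RNA sequencing. The comparison took the 5 libraries with the LCO 10 mg/L treatment label and the 5 labelled untreated, which are 10 of the 20 libraries of the series. A further 5 libraries of LCO 1 mg/L and 5 of an ion treatment, whose makeup the labels do not give, entered the fit for the estimate of spread. All groups were larvae of a strain labelled WT with a wild type genotype, sampled at 10 days post fertilization after 48 hours, and each library held a pool of 20 larvae.

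LCO is a layered cathode material of rechargeable lithium batteries, and its nanosheets can release lithium and cobalt ions in water. In vertebrate cells dissolved cobalt is known to stabilise hypoxia-inducible factors and to raise oxidative stress. The files do not pair their Ensembl transcript identifiers with genes, and 0 of the 57775 identifiers matched the gene tables used, so no gene of those responses could be looked up. Transcripts are given by identifier, length and value, and a tissue could not be checked against markers.

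Most changes called at 10 mg/L were small, and most had 4 or 5 exposed pools beyond the control range. The called falls were of like median size with replicates 2 and 3 fitted together and with the other pools fitted together. Single pools differed, with median log2 ratios of these falls to the control mean of -0.65 and -0.53 in replicates 2 and 3. They were -0.52, -0.51 and -0.68 in replicates 1, 4 and 6. Against replicates 1, 4 and 6 fitted together, 80.0% of called rises were larger in replicates 2 and 3, and 64.1% of all transcripts tested. By single pools, the called rises had median log2 ratios to the control mean of 0.36 and 0.34 in replicates 2 and 3. These were 0.35 and 0.33 in replicates 4 and 6, so that only replicate 1 stood apart, at 0.20. By the rule given below, 8 rises and 0 falls rested on the exposed pools numbered 2 and 3. These 8 were large, and with identical counts taken once they made 5 distinct patterns. Replicate 2 was 10.6 to 28.2 times the highest control in them, and replicate 3 was 1.57 to 81.6 times. Replicate 2 was past 4 times the highest control in all 8 and replicate 3 in only 3. The remaining rises were thus far larger in replicate 2 than in replicate 3. The number of rises counted as resting on the 2 pools depended on the fit. It was 0 with limma-voom, with these 2 groups alone, with replicate number as a block and with fragment length as a covariate. Where a called rise failed to reach all 5 exposed pools, the exception was most often replicate 1. The following paragraphs give the libraries, the calls, the changes held in every pool and then the rises that rested on replicates 2 and 3.

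Total estimated counts ranged from 32568890 to 63120039 in controls and from 24950529 to 47031868 in exposed libraries, a difference that did not pass an exact two-sided permutation test (p = 0.0952, adjusted over 4 measures p = 0.111). The gap between transcript length and effective length, which reflects the fragment lengths of a library, was 152 ± 5.98 bases in controls and 162 ± 3.60 bases in exposed libraries (SD, n = 5 each, exact permutation p = 0.0397, adjusted p = 0.111). On the first principal component of log2 CPM, the counts scaled to library size, which held 14.7% of the variance, exposed replicate 1 had a score of -35.1, inside the range of the controls (-60.2 to -29.3). Exposed replicates 2, 3, 4 and 6 had scores of 84.8, 52.0, 20.9 and 60.4. The component was computed over all 20 libraries, and the other treatments were split along it as well. Ion replicates 4 and 6 were at 42.1 and 61.1, and LCO 1 mg/L replicates 1 and 2 at 70.1 and 90.4. The remaining pools of these groups were at -42.7 to -20.8. The labels give no batch for this separation, and whether pools shared parents or tanks is not stated, so that p-values reflect how these pools differ, which may be technical.

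By edgeR's quasi-likelihood test, 898 of 39355 transcripts were called higher at 10 mg/L (2.28% of those tested) and 1572 lower (3.99%), at a Benjamini-Hochberg adjusted p under 0.05. Rises had a median fold of 1.26, and 49 of them were at least 2-fold. Falls had a median fold of 1.55, and 260 of them were at least 2-fold. The split between directions moved with scaling. With upper quartile scaling 1353 were higher and 1412 lower, so that rises made 48.9% of calls instead of 36.4%. Adding the fragment length gap to the fit left 54 rises and 153 falls. The gap was 144.2 to 158.4 bases in controls and 157.9 to 165.9 bases in exposed libraries. A fit with the gap therefore cannot fully separate exposure from fragment length. Why a call was lost in it was not tested, and a lost call does not mean that the fold change shrank. Leaving out 1 library lowered the rises to 361, 400 and 534 for control replicates 3, 4 and 5, and to 353, 552 and 452 for exposed replicates 2, 3 and 6. The falls numbered 862 when control replicate 3 was left out and 800 for control replicate 4, 932 for exposed replicate 2 and 861 for exposed replicate 6. In whole larvae, fewer cells of a type and less of a transcript per cell cannot be told apart.

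Without exposed replicates 2 and 3, edgeR called 106 rises (0.269% of those tested) and 483 falls (1.23%). Of the calls made with all 5 exposed pools, 103 of 898 rises and 467 of 1572 falls were called again. Fold changes moved far less than the calls. The log2 fold change without the 2 pools, divided by that with all 5, had a median of 0.89 over the rises and 1.00 over the falls. It lay between 0.8 and 1.2 for 722 of the rises and 1385 of the falls, and for 33.3% of all transcripts tested. Among the calls that were lost, 627 of 795 rises and 1044 of 1105 falls kept at least 0.8 times their log2 fold change, and 782 and 1105 still had an unadjusted p under 0.05. Of all 38766 transcripts not called without the 2 pools, 22380 kept as much and 5080 had an unadjusted p under 0.05. The ratio of log2 fold changes sets 3 pools against 5 that include them, so the pools were also fitted apart. With replicates 2 and 3 as the exposed pools the called rises had a median log2 fold change of 0.37, against 0.29 with replicates 1, 4 and 6. In 718 of 898 (80.0%) the change was larger in size in replicates 2 and 3. By single pools, the median log2 ratio of these rises to the control mean was 0.36 and 0.34 in replicates 2 and 3. It was 0.35 and 0.33 in replicates 4 and 6, and 0.20 in replicate 1. The called falls had medians of -0.63 and -0.64 in the 2 fits, and 836 of 1572 (53.2%) were larger in replicates 2 and 3. Their median log2 ratios in single pools were -0.52, -0.65, -0.53, -0.51 and -0.68 in replicates 1, 2, 3, 4 and 6. Over all transcripts tested 64.1% were larger in size in the fit with 2 pools. These values come from the same libraries that made the calls and describe them.

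**Figure D1:**
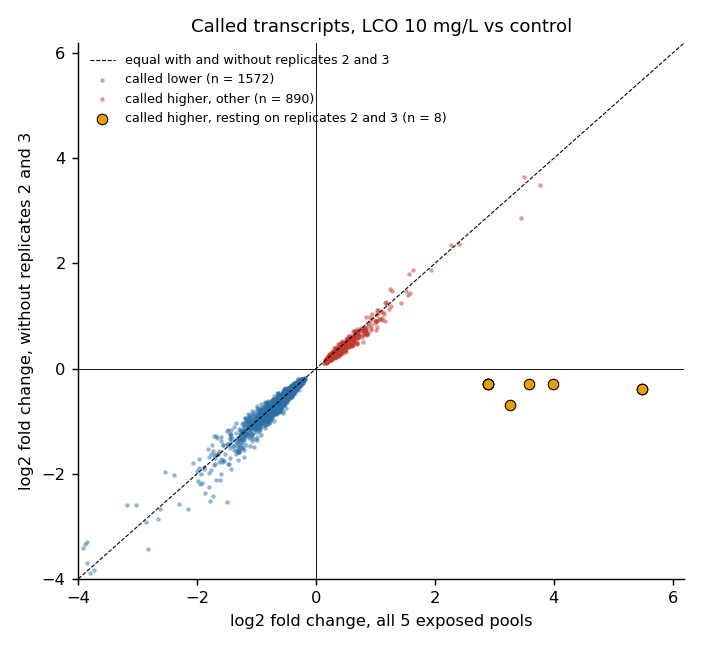
Log2 fold change of each called transcript with all 5 exposed pools (horizontal) and without LCO 10 mg/L replicates 2 and 3 (vertical). Each point is a transcript, 27 of the 2470 lie outside the axes, and the 8 marked rises sit below 0 on the vertical axis while the others lie nearer to the dashed line of equal values.

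Leaving out most of the other pairs without replicate 1 cost about as many calls. The fit kept 371 calls without replicates 2 and 6, 589 without 2 and 3, 601 without 4 and 6, 605 without 2 and 4, 625 without 3 and 6 and 1097 without 3 and 4. The 4 pairs that held replicate 1 left more, with 1369 without 1 and 6, 1494 without 1 and 2, 1817 without 1 and 3 and 2085 without 1 and 4. In number of calls, replicates 2 and 3 therefore did not stand apart from 4 and 6. In fold change, called rises had median ratios of 0.89 without 2 and 3, 0.89 without 2 and 6 and 0.90 without 2 and 4. The ratio was 0.92 without 3 and 4, 0.97 without 3 and 6 and 0.97 without 4 and 6. Among pairs without replicate 1, the lowest ratios for rises were thus those with replicate 2 left out. For falls the ratios were 1.00, 0.93, 1.01, 1.08, 0.96 and 0.98 in the same order. Replicates 2 and 3 differed from the other pairs in a few rises. This pair was singled out with earlier results of these data known, so the contrast with other pairs is a description and no test. Without replicates 2 and 3, 8 called rises fell to under 0.5 times their log2 fold change, against 0 to 2 without any other pair. Some of the 8 had identical counts, and they made 5 distinct patterns. For falls that number was 0 for each of the 10 pairs.

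**Figure D2:**
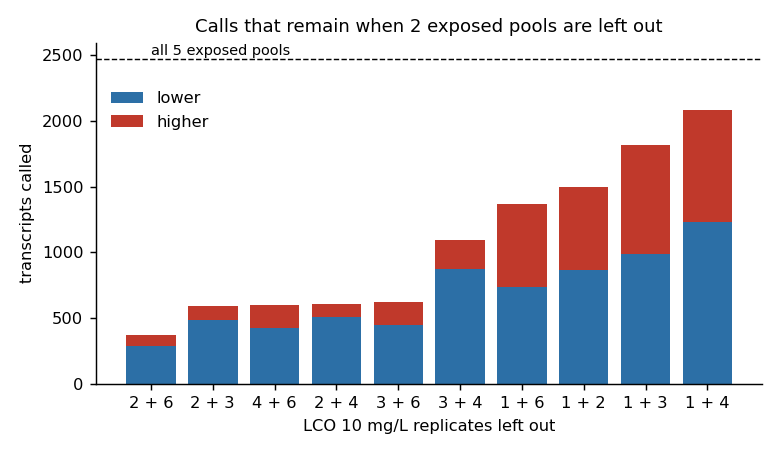
Number of transcripts called higher and lower (vertical) when the 2 LCO 10 mg/L replicates named on the horizontal axis are left out of the fit. The dashed line marks the 2470 calls with all 5 exposed pools, and the bar for replicates 2 and 3 (589) lies among those of the other pairs without replicate 1.

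All 5 exposed libraries lay above all 5 controls in 1275 transcripts (3.24% of those tested) and below them in 1980 (5.03%). Among the calls, which the same values made, 626 of 898 rises and 1226 of 1572 falls had groups that did not overlap. Another 241 rises had exactly 4 exposed pools beyond the control range. In 174 of these the pool inside the control range was replicate 1, against 11 to 23 for each of the others. Over all called rises, replicate 1 lay above every control in 702 of 898, and replicates 2, 3, 4 and 6 in 871, 880, 869 and 854. The median log2 ratio to the control mean, with 0.5 CPM added, was 0.20 in replicate 1 and 0.33 to 0.36 in the other 4.

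Among called falls the exceptions were spread more evenly over the pools. Of the 269 falls with exactly 4 exposed pools beyond the control range, the exception was replicate 4 in 89, replicate 1 in 84, replicate 3 in 53, replicate 6 in 23 and replicate 2 in 20. Replicate 1 lay below every control in 1443 of 1572 falls and replicate 2 in 1525. With replicate 1 as the one exposed pool in the fit, its log2 fold change had the sign of the call in 1571 of 1572 falls and 866 of 898 rises. Over all tested transcripts it had the sign of the change with all 5 pools in 27964 of 39355, and replicate 1 is itself one of those pools. That fit, in which the lone pool is assumed to vary like the other groups, called 16 falls and 0 rises by edgeR, with 2225 falls and 1084 rises at an unadjusted p under 0.05.

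**Figure D3:**
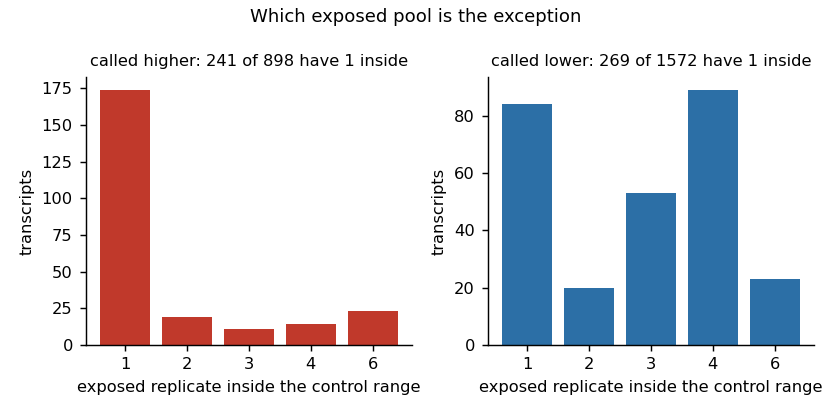
For calls with 4 of 5 exposed pools beyond the control range, the bars count how often each LCO 10 mg/L replicate was the pool inside that range, for rises (left) and falls (right). Replicate 1 is the exception in 174 of 241 rises, while the falls are shared among replicates 1, 3 and 4.

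A change was counted as held where it was called with all pools, was called again in the same direction without replicates 2 and 3, and had no overlap between the 5 exposed pools and the 5 controls. By this rule 95 rises and 425 falls were held, 10.6% of called rises and 27.0% of called falls. The held rises numbered 39, 35 and 48 when control replicates 3, 4 or 5 were left out, and 10 and 9 without exposed replicates 4 and 6. The held falls numbered 281, 262, 167 and 204 when control replicates 2, 3, 4 or 5 were left out. They numbered 245, 142 and 33 without exposed replicates 1, 4 and 6, where the second fit kept only 2 exposed pools. With the fragment length gap in the fit 13 rises and 76 falls were held, and with DESeq2 410 and 865. Held rises had a median fold of 1.32, with 7 of 95 at least 2-fold. Held falls had a median fold of 1.67, with 85 of 425 at least 2-fold. The held rises had a median length of 3484 bases, close to the 3294.5 bases of all called rises, against 1922 bases for held falls, 1777 bases for all called falls and 1857 bases for all tested. Their median log2 CPM was 5.43, against 3.58 for held falls and 1.97 for all tested.

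The values of the held changes by pool are a description, since the rule asked each exposed pool to lie beyond the controls and the call to be made without replicates 2 and 3. The median log2 ratio of the 95 rises to the control mean was 0.30 in replicate 1, 0.37 in replicate 2, 0.38 in replicate 3, 0.44 in replicate 4 and 0.37 in replicate 6. In single controls, set against the mean of the other 4, it ranged from -0.03 to 0.04. For the 425 falls the median ratio was -0.66, -0.70, -0.59, -0.66 and -0.84 in the same order of exposed pools, and -0.10 to 0.13 in controls. At 1 mg/L and under ion, compared with the same 5 controls, the held rises had median log2 fold changes of 0.36 and 0.18 and the held falls -1.01 and -0.37. The held transcripts were chosen on the values of these controls, so these medians are given side by side and nothing is read from their direction.

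The rest of the calls fell between. Groups did not overlap, but the call was lost without replicates 2 and 3, in 531 rises and 801 falls, whose median ratios of log2 fold change were 0.89 and 0.97. Groups overlapped and the call was lost in 256 rises and 304 falls, with ratios of 0.88 and 0.95. In 8 rises and 42 falls the groups overlapped and the call was made again, with median ratios of 1.2 and 1.3 and lowest ratios of 1.02 and 0.91. In the 256 overlapping rises the median log2 ratio to the control mean was 0.11 in replicate 1 and 0.35 to 0.41 in replicates 2, 3, 4 and 6.

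Among held changes whose log2 CPM averaged 1 or more, the rise with the largest fold was in ENSDART00000110490.4, a transcript of 534 bases. It was at 2.67, 2.13, 2.41, 3.74 and 1.32 CPM in control replicates 1 to 5 and at 20.6, 18.3, 8.30, 11.6 and 6.03 CPM in exposed replicates 1, 2, 3, 4 and 6. Replicate 1, which lay with the controls on the first principal component, was the highest pool here, and the lowest exposed pool was 1.61 times the highest control. The log2 fold change was 2.41 ± 0.42 (SE, edgeR adjusted p = 0.00351) and 2.37 without replicates 2 and 3 (edgeR adjusted p = 0.0186). Leaving out any 1 of the 10 libraries kept the call, with edgeR adjusted p from 0.00422 to 0.0117. Against the same controls its log2 fold change was 1.53 at 1 mg/L (edgeR adjusted p = 0.0201) and 3.06 under ion (edgeR adjusted p = 0.0142).

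The next was ENSDART00000109791.4, of 279 bases, at 0.769, 0.502, 0.716, 0.864 and 0.580 CPM in control replicates 1 to 5. Exposed replicates 1, 2, 3, 4 and 6 were at 6.46, 4.22, 1.77, 2.71 and 1.44 CPM, all above the controls. The exposed pools stood in the same order as for ENSDART00000110490.4, with replicate 1 highest and replicate 6 lowest. Its log2 fold change was 2.27 ± 0.47 (SE, edgeR adjusted p = 0.00847), 2.35 without replicates 2 and 3 (edgeR adjusted p = 0.0295). Leaving out 1 library kept the call (edgeR adjusted p up to 0.0246), and limma-voom did not make it (adjusted p = 0.0636). It was 1.49 at 1 mg/L (edgeR adjusted p = 0.0386) and 3.06 under ion (edgeR adjusted p = 0.0184). Under ion 3 transcripts in all were called higher (0.00762% of those tested), and these were 2 of them. Both had been chosen as the largest held rises against the same controls, which favours a call in any other group. Their 1 mg/L and ion values are therefore no independent support, and the same holds for the named falls below.

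Among held changes at the same level of log2 CPM, the falls with the largest folds were in ENSDART00000169413.2, of 2703 bases, and ENSDART00000173943.2, of 805 bases. ENSDART00000169413.2 was at 3.39, 4.45, 5.21, 8.48 and 4.14 CPM in controls and at 1.39, 1.57, 1.69, 1.08 and 0.911 CPM in exposed replicates 1, 2, 3, 4 and 6. The lowest control was 2.00 times the highest exposed pool, and the exposed pools lay within a narrow band. Its log2 fold change was -1.95 ± 0.37 (SE, edgeR adjusted p = 0.00544) and -2.19 without replicates 2 and 3 (edgeR adjusted p = 0.0267). Against the same controls it was -2.48 at 1 mg/L (edgeR adjusted p = 0.000175) and -0.57 under ion, where it did not pass (edgeR adjusted p = 0.593). Once the fragment length gap entered the fit it was not called at 10 mg/L (edgeR adjusted p = 0.0721). The log2 fold change in that fit was -1.87.

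ENSDART00000173943.2 was at 13.4, 9.16, 8.78, 17.9 and 15.0 CPM in control replicates 1 to 5. Exposed replicates 1, 2, 3, 4 and 6 were at 1.94, 7.92, 4.23, 1.92 and 2.96 CPM, so that replicates 2 and 3 were the pools nearest to the controls and the lowest control was 1.11 times replicate 2. The log2 fold change was -1.78 ± 0.41 (SE, edgeR adjusted p = 0.0165) and larger without these 2 pools, at -2.52 (edgeR adjusted p = 0.0112). With replicates 2 and 3 as the exposed pools in the fit the fall did not pass (edgeR adjusted p = 0.256). In that fit ENSDART00000169413.2 and ENSDART00000109791.4 did not pass either (edgeR adjusted p = 0.121 and 0.0629), while ENSDART00000110490.4 did (0.0325). Of the 1572 called falls, 203 passed in it. ENSDART00000173943.2 was also not called once the fragment length gap entered the fit with all pools (edgeR adjusted p = 0.162). Its log2 fold change in that fit was -1.82. At 1 mg/L it was -3.40 (edgeR adjusted p = 4.49e-05) and under ion -1.60, where it did not pass (edgeR adjusted p = 0.201).

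**Figure D4:**
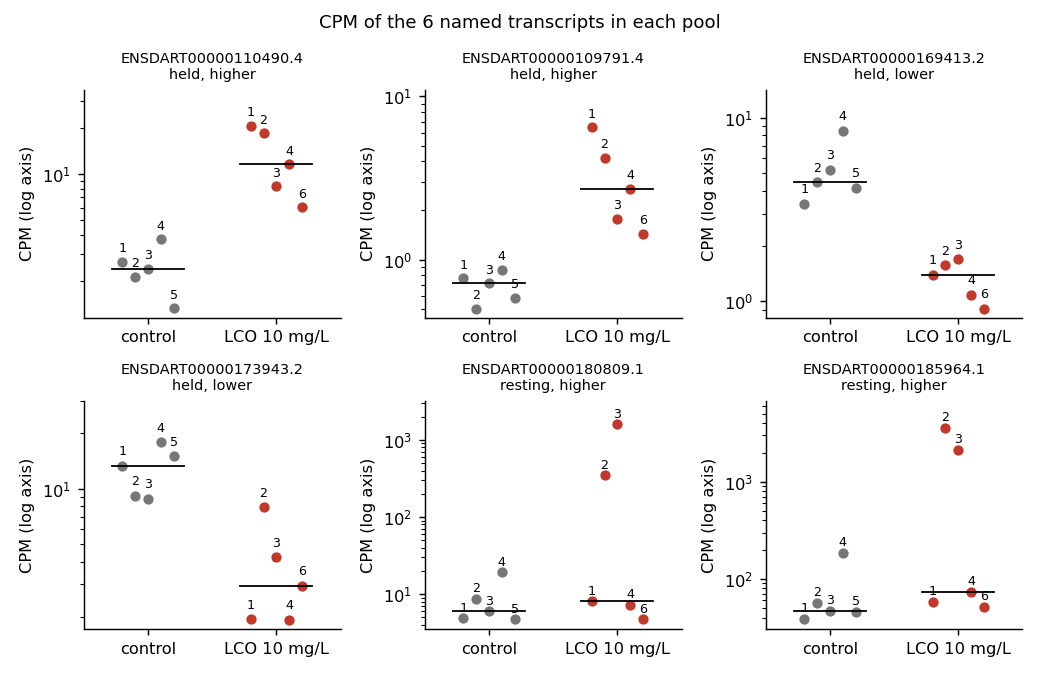
CPM of the 6 named transcripts (vertical, log axis) in each pool of controls and LCO 10 mg/L, with replicate numbers beside the points and a line at the median. In the 4 held transcripts no exposed pool overlaps the controls, and in the 2 resting on replicates 2 and 3 the other exposed pools lie below the highest control.

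A rise or fall was counted as resting on replicates 2 and 3 where it was called with all pools, was not called without these 2, and then kept under 0.5 times its log2 fold change or changed sign. This was so for 8 of 898 called rises and 0 of 1572 called falls (12 and 1 with DESeq2). No rise met the rule with limma-voom, with these 2 groups alone in the fit, with replicate number as a block or with the fragment length gap (0 each). Without 1 library the number of rises was 2 for control replicates 1, 2, 3 or 5 and for exposed replicate 2, 3 for exposed replicate 3 and 17 for exposed replicate 1. All 8 changed sign, from log2 fold changes of 2.90 to 5.49 with all pools to -0.69 to -0.29 without the 2 (edgeR adjusted p from 0.371 to 0.863). Counts were identical among 2 of the 8 transcripts and among another 3, whose reads the counting could not separate, and the 8 made 5 distinct patterns. Their lengths ran from 168 to 1212 bases.

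The largest was ENSDART00000180809.1, of 432 bases, which shares its counts with 1 other identifier. It was at 4.85, 8.78, 6.09, 19.5 and 4.80 CPM in control replicates 1 to 5 and at 8.08, 350.4, 1589, 7.31 and 4.74 CPM in exposed replicates 1, 2, 3, 4 and 6. Replicates 2 and 3 were thus 18 and 81.6 times the highest control, and the other 3 exposed pools lay below the highest control. Its log2 fold change of 5.49 ± 1.27 (SE, edgeR adjusted p = 0.0157) became -0.40 without the 2 pools (edgeR adjusted p = 0.776). Without replicate 3 alone it was 3.40 (edgeR adjusted p = 0.0572).

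ENSDART00000185964.1, of 306 bases, was at 38.3, 55.9, 47.1, 183 and 45.5 CPM in control replicates 1 to 5. In exposed replicates 1, 2, 3, 4 and 6 it was at 57.7, 3608, 2110.5, 73.5 and 51.1 CPM. Here replicate 2 was the higher of the 2 pools, at 19.7 times the highest control, and replicate 3 was at 11.5 times. The log2 fold change was 3.99 ± 1.00 (SE, edgeR adjusted p = 0.0245) and -0.30 without both pools (edgeR adjusted p = 0.852). Without replicate 2 alone it was 2.94 (edgeR adjusted p = 0.0848), and the call was also lost without control replicates 1, 2, 3 or 5 (0.0504 to 0.0676). Limma-voom called neither of these transcripts (adjusted p = 0.317 and 0.203), nor did edgeR with these 2 groups alone in the fit (adjusted p = 0.0666 and 0.0840).

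The most abundant of the 8, of 1212 bases, was at 597 to 2934 CPM in controls, at 60097 CPM in exposed replicate 2 and at 5550 CPM in replicate 3, while replicates 1, 4 and 6 were at 947, 1112 and 789 CPM. A transcript of 733 bases was at 0.565 to 1.86 CPM in controls and at 0.811, 52.4, 2.92, 0.861 and 0.531 CPM in exposed replicates 1, 2, 3, 4 and 6. The 3 identifiers of 168 bases with identical counts were at 1.13 to 5.89 CPM in controls and at 1.82, 62.6, 17.8, 2.21 and 1.67 CPM in the same order. Across the 8, replicate 2 was 10.6 to 28.2 times the highest control and replicate 3 was 1.57 to 81.6 times. Replicate 3 was past 4 times the highest control in 3 of the 8, and replicate 2 in all 8. Those 3 were the identifiers of 432 bases, which have identical counts, and the transcript of 306 bases. In each of the 8, exposed replicates 1, 4 and 6 were below the highest control.

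The highest control was replicate 4 for each of the 8, at 1.56 to 4.09 times the median control. Together the 8 transcripts took 5.96% of the counts tested in exposed replicate 2 and 1.05% in replicate 3. Most of the share in replicate 2 came from the transcript of 1212 bases, at 60097 CPM there. The 8 took 0.0870% to 0.116% in exposed replicates 1, 4 and 6, 0.315% in control replicate 4 and 0.0666% to 0.0929% in the other 4 controls. Against the same controls, edgeR called 0 of the 8 at 1 mg/L, where 4.34% of all transcripts were called higher and the log2 fold changes of the 8 were -0.19 to 0.34. A single 1 mg/L pool, replicate 2, was above the other 4 of its group in both named transcripts. It was at 24.5 CPM against 6.54 to 8.70 CPM in the other 4 for ENSDART00000180809.1, and at 178 CPM against 45.5 to 67.0 CPM for ENSDART00000185964.1. The highest control, replicate 4, was at 19.5 and 183 CPM in the same order. The pool was thus little above that control in the first transcript and not above it in the second. Under ion edgeR also called 0 of the 8, where only 0.00762% of all transcripts were called higher. The 5 ion pools were at 5.42 to 6.76 CPM and 40.8 to 66.2 CPM for the 2 named transcripts.

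**Figure D5:**
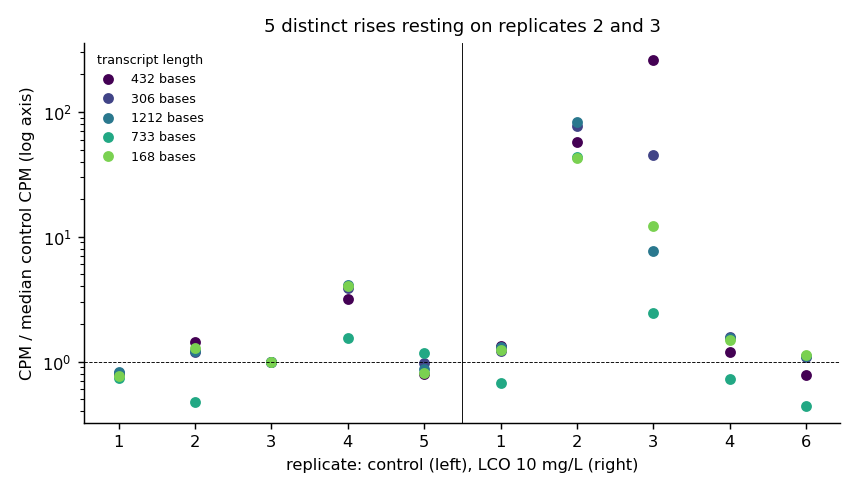
CPM of the 5 distinct rises resting on replicates 2 and 3, divided by the median control CPM (vertical, log axis), in each control (left) and LCO 10 mg/L pool (right). Colours stand for transcript length, exposed replicate 2 is high for all 5, replicate 3 for most to a differing degree, and control replicate 4 is the highest control in each.

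Large departures in single pools were counted beyond the calls, as transcripts of at least 1 CPM and at least 4 times the highest control. There were 26 in exposed replicate 1 (0.0661% of those tested), 89 in replicate 2 (0.226%), 36 in replicate 3 (0.0915%), 33 in replicate 4 (0.0839%) and 43 in replicate 6 (0.109%). Single controls set against the other 4 gave 18 to 44, an easier limit by 1 library. Transcripts at no more than 0.25 times the lowest control, itself at 1 CPM or more, numbered 57 in exposed replicate 1 (0.145%), 155 in replicate 2 (0.394%), 120 in replicate 3 (0.305%), 83 in replicate 4 (0.211%) and 152 in replicate 6 (0.386%). The controls gave 22 to 68. Replicate 2 therefore had the most of both, and replicate 3 was not beyond replicate 6 in either. Depth differed as well. Exposed replicates 2, 6 and 3 had the fewest estimated counts, at 24950529, 25940642 and 27014252. Replicates 1 and 4 had 33983038 and 47031868. Among controls, the low transcripts numbered 68 in replicate 2, with 32568890 counts, and 22 in replicate 5, with 63120039 counts. Whether these numbers follow depth was not tested.

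Of these high transcripts, replicates 2 and 3 shared 17, which are 19.1% of those in replicate 2 and 47.2% of those in replicate 3. Replicates 2 and 6 also shared 17, and replicates 2 and 4 shared 15. In 12 of the 17 shared by replicates 2 and 3, replicate 4 or 6 passed the limit as well, and in 5 no other exposed pool did. Among the low transcripts, replicates 2 and 3 shared 38 and replicates 3 and 6 shared 45. No transcript was past the high limit in all 5 exposed pools (0), and 3 were past the low limit in all 5.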

How the data were processed

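The authors deposited 1 table per library with estimated counts, TPM, length and effective length of 57775 Ensembl transcripts. FastQC 0.11.5, cutadapt 1.18, kallisto 0.45.0 and build GRCz11 are named per the submitters' processing notes; settings are not given in the sources used here. The deposited estimated counts are expected counts, since kallisto shares a read among transcripts; they were rounded to whole numbers, and edgeR 4.0.16 under R 4.3.3 was used for testing. The deposited TPM values were not used in a test. Changes of a gene and shifts among its transcripts cannot be told apart here.

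Transcripts were kept by filterByExpr (minimum count 10, with groups), which left 39355 and at least 99.9% of counts per library; 398 of them shared their rounded counts with at least 1 other. Libraries were scaled by TMM, and CPM are on that scale. All 20 libraries entered a single fit by group, the contrast was tested two-sided by glmQLFTest, and the SE is the log2 fold change divided by the square root of F. The same transcripts were tested when libraries were left out. The rule for naming took, in each class and direction, the 2 largest log2 fold changes where log2 CPM averaged 1 or more, identical counts once; the 3 other distinct rises resting on replicates 2 and 3 are given by length. The members, classes, rules and alternatives were chosen with earlier results of these data known. DESeq2 1.42.0 and limma 3.58.1 were alternatives. The test and the class rule were run on simulated counts, with changes planted in all exposed pools or to the same degree in replicates 2 and 3. The resting rises seen here were uneven between these 2 pools, so that run does not show how the rule treats them. No 2 libraries were identical (0 of 20 pairs within groups, chi-square per degree of freedom at least 13.5). Library measures were compared by exact permutation tests, whose smallest p is 0.00794.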

Additional observations from a re-analysis of the deposited data

Results flagged for a closer look

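Gaps between 1 library and the others were looked for in 20 sets of 5 libraries, covering the 6 named transcripts and 4 library measures in both groups; chance marks about 1 in 20 such sets. There were 3, all in rises that rested on replicates 2 and 3. The named transcripts were chosen by their values in these same libraries, so that rate does not hold for them. ENSDART00000180809.1 stood apart in control replicate 4, at 19.5 CPM against at most 8.78 CPM in the other controls. It also stood apart in exposed replicate 3, at 1589 CPM against at most 350.4 CPM in the other exposed pools. ENSDART00000185964.1 stood apart in control replicate 4, at 183 CPM against at most 55.9 CPM in the other controls. Without control replicate 4 its log2 fold change was 4.66.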

How the results depend on the processing

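With all 5 exposed pools the calls were 898 higher and 1572 lower, of which 95 rises and 425 falls were held and 8 rises and 0 falls rested on replicates 2 and 3. DESeq2 gave 1950, 2425, 410 and 865, then 12 and 1. The fragment length gap as a covariate gave 54, 153, 13 and 76, then 0 and 0. With no filter on low counts 504 were higher and 3 rises rested on the 2 pools, and with upper quartile scaling 1353 were higher and 198 rises held. Limma-voom and the fit of these 2 groups alone gave 0 resting rises each. The replicate block gave 530 higher, 10 held rises, 180 held falls and 0 resting rises. The labels do not say what a shared replicate number stands for, and no pairing was assumed in the main fit. Deviations of same-numbered pools had r of -0.02 to 0.08 over 4 numbers. Of 4 controls, 2 correlated best with their own number, and these values cannot decide whether pools were paired. Leaving out 1 library gave 353 to 1220 higher, 800 to 1616 lower, 9 to 139 held rises, 33 to 451 held falls and 2 to 17 resting rises; the fewest held changes came without exposed replicate 6. Calls higher and lower were 106 and 483 without replicates 2 and 3, 98 and 507 without 2 and 4, 81 and 290 without 2 and 6, 223 and 874 without 3 and 4, 180 and 445 without 3 and 6, 174 and 427 without 4 and 6. Falls were 866, 984 and 734 without 1 and 2, 1 and 3, and 1 and 6. Settings added after seeing the data gave 0 and 16 with replicate 1 as the lone exposed pool, and 184 and 256 with replicates 2 and 3 alone. The log2 fold changes of ENSDART00000180809.1 and ENSDART00000185964.1 were -0.40 and -0.30 without replicates 2 and 3 and -0.12 and -0.36 with replicate 1 alone. Where not stated, the cause was not tested. Fewer exposed pools lower the number of calls at a given spread, so a lost call is not a lost change.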

Other observations

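A pattern of presence was looked for after the values had been seen. In 2 transcripts all 5 controls and exposed replicate 1 were at 0, while exposed replicates 2, 3, 4 and 6 were each at 1 CPM or more. The more abundant, of 330 bases, was at 228, 110.2, 404 and 157 CPM in these 4 pools, and the other, of 640 bases, at 3.09, 1.85, 2.49 and 3.87 CPM. Neither was called (edgeR adjusted p = 0.0770 and 0.0922). No transcript was at 0 in all controls and at 1 CPM or more in all 5 exposed pools (0). In the opposite direction, 2 transcripts were at 0 in all 5 exposed pools and at 1 CPM or more in every control, and both were called lower.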
